A study of Mus musculus with 4 samples.

Results

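Interferon-stimulated genes are the genes that cells switch on after interferon binds its receptors. A list of 35 of them was followed across the cell types of mouse lung tumors, out of 31055 features in the deposited matrix. The list was set by gene symbol, with earlier results of these data known, and all 35 symbols were found once each in the feature table. Together they held 63729 UMIs (unique molecular identifiers, one per captured RNA molecule) of the 58624795 in the matrix, or 0.109%.

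Single-cell RNA-seq was performed by droplet capture of RNA 3′ ends on total viable cells from microdissected lung tumors of 4 female mice, 16 weeks after Lenti-Cre was delivered to the airways. All mice carried Lkb1XTR/XTR and Rosa26LSL-tdTomato among their alleles, so that Cre switched on the red reporter and trapped Lkb1 (Stk11) in the cells it reached. The 2 Restored mice also carried FLPo-ERT2, a tamoxifen-activated recombinase that removes the trap, and the 2 Non-Restored mice lacked it. By their sample labels all 4 mice received tamoxifen in 4 mg doses for 2 weeks, while the design text also names a vehicle. The matrix pooled the 4 mice with no map from cells to mice, so it counted as 1 sample: Restored and Non-Restored mice were not compared, what they contribute to a cell type cannot be told apart, and no test was run. Intervals below are 95% intervals for counting error only.

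Type I interferons signal through the receptor pair IFNAR1 and IFNAR2, type III interferons through IFNLR1 with IL10RB, and type II interferon (IFN-gamma) through IFNGR1 and IFNGR2. Types I and III lead to a complex with STAT2 and IRF9 that binds the interferon-stimulated response element (ISRE), a pair of GAAA repeats, whereas IFN-gamma acts mainly through the gamma-activated site (GAS). Products of the induced genes sense foreign nucleic acid, block translation of viral RNA, hold virus particles at the membrane or attack vacuoles, and many of them are also made at a low basal level in unchallenged immune cells and endothelium.

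The promoter sequences of the list were read first, since the ISRE is the shared feature that the name of the list implies. RefSeq promoter windows (GRCm38.p6, the mm10 assembly), from 250 bases before to 50 bases after each gene's start, were at hand for 28 of the 35 genes. The letters GAAA and GAAA with any 2 bases between them, or TTTC and TTTC on the other strand, were found in a window of 19 of these 28 genes (67.9%), against 773 of the 19407 genes with a window (3.98%). The letters of a GAS, TTC and GAA with any 3 bases between them, which read the same way on both strands, were found for 6 of the 28 (21.4%) against 9.28% of all genes. Overlapping matches were allowed, and 4 genes held both motifs. The sequences shown here are a choice from the 19 genes with ISRE letters. Most are of genes that lead in a cell type below, and Ifit3b is shown beside its neighbour Ifit3. Other leading genes with a match, Oas1a and Irgm1 among them, are not shown. Each is written 5′ to 3′ on the gene's own strand, with the ISRE letters in capitals and 10 flanking bases on either side.
Isg15 (chr4:156200865-156200906, minus strand): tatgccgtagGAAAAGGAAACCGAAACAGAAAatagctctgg
Ifit1 (chr19:34640794-34640823, plus strand): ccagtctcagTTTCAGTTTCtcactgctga
Ifit3 (chr19:34583363-34583392, plus strand): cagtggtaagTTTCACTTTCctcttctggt
Ifit3b (chr19:34607759-34607788, plus strand): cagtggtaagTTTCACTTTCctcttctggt
Oas3 (chr5:120777715-120777744, minus strand): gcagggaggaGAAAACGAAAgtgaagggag
Rsad2 (chr12:26456553-26456582, minus strand): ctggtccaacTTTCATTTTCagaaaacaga
Bst2 (chr8:71537577-71537612, minus strand): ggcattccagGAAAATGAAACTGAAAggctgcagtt
Slfn5 (chr11:82951937-82951966, plus strand): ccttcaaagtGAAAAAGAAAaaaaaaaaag
Igtp (chr11:58199512-58199541, plus strand): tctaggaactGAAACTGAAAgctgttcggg
Gbp7 (chr3:142530273-142530302, plus strand): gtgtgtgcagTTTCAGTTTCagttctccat
Ifi203 (chr1:173942508-173942537, minus strand): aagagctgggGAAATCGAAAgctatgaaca

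The run in Isg15 held 3 overlapping matches beginning 78 bases before the start, and that in Bst2 held 2 beginning 130 bases before it. The shown stretches of the neighbouring genes Ifit3 and Ifit3b were the same letter for letter. Ifit1, Ifit3 and Ifit3b each held a further match that is not shown. The match in Slfn5 runs on into a stretch of A. The 9 genes with a window but without these letters were Ifit2, Oasl1, Oasl2, Irf7, Ifi47, Cmpk2, Isg20, Ifi44 and Xaf1. Several of them, Irf7, Oasl1, Oasl2, Ifi44 and Ifi47 included, also lead in a cell type. The lack of the letters says nothing of the factor's binding elsewhere.

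Cells were assigned to a type by marker genes that are not on the list. Of 19488 cells that passed the cell filter, 12680 (65.1%) had at least 3 markers of 1 type and a lead of 2 markers over every other type. They included 15 types of 48 to 2816 cells, called T cell-like, neutrophil-like and so on, which are described here, besides 22 cDC2-like and 6 ciliated or club-like cells. A further 4934 cells had too few markers and 1874 had markers of more than 1 type without such a lead. Levels are given as CPM, the UMIs of a gene per 1000000 UMIs of that cell type. Since only 3′ ends were counted, CPM can be compared between genes without a length correction. In 14 of the 15 types, markers of the type itself were among the 10 genes with the largest ratio; in epithelial-like cells these were surfactant genes and other lung epithelial genes such as Sftpc. Ly6c2 of the classical monocyte gate is itself known to respond to interferon, and a gate without it is given in the closing section.

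The summed level of the 35 genes differed widely between cell types. Classical monocyte-like cells were highest at 4689 CPM (4516 to 4867), and plasmacytoid dendritic cell-like cells, the specialised producers of type I interferon, came next at 4018 CPM (3783 to 4264). Non-classical monocyte-like cells followed at 2089 CPM (1942 to 2245). Endothelial-like (1794 CPM), neutrophil-like (1787 CPM) and T cell-like cells (1779 CPM) did not differ beyond counting error. C1q-high macrophage-like cells had 1129 CPM, and neighbours in the order from there through stromal-like (1025), B cell-like (963), cDC1-like (905), NK cell-like (846) and mature dendritic cell-like cells (842) did not differ either. Basophil or mast cell-like (511) and alveolar macrophage-like cells (409) were lower. Epithelial-like cells, which hold the tumor cells, were lowest at 176 CPM (163 to 190), or 0.745 UMIs of the whole list per cell against 14.7 in classical monocyte-like cells.

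**Figure D1:**
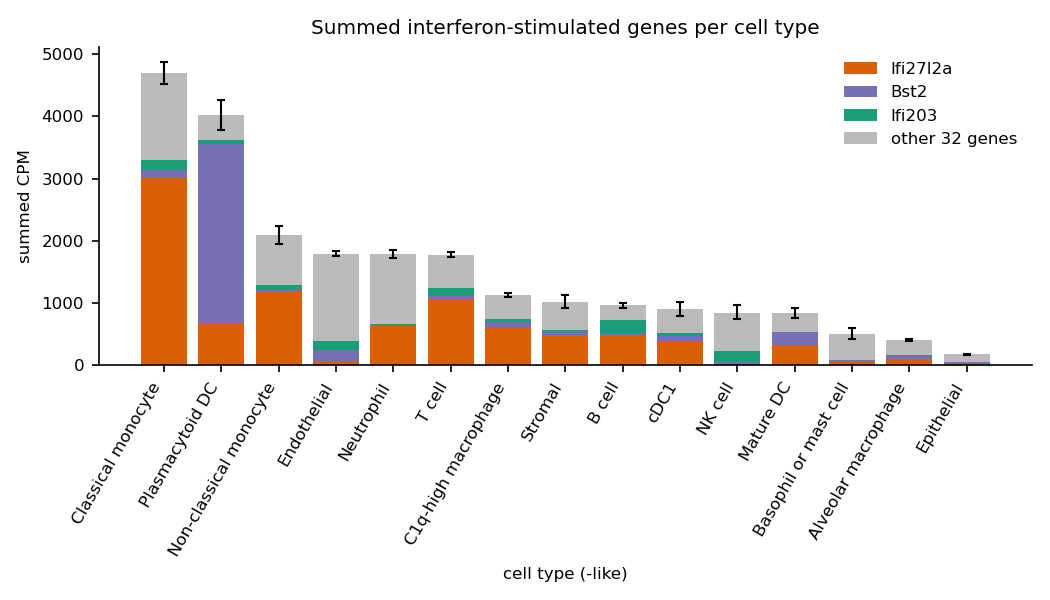
Bars show the summed CPM of the 35 genes in each marker-gated cell type, split into Ifi27l2a, Bst2, Ifi203 and the other 32 genes, with 95% Poisson intervals of the sum. Ifi27l2a makes up 64.0% of the tallest bar and Bst2 71.5% of the second.

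The order of the sum rested on 3 genes. Ifi27l2a, which encodes a small hydrophobic protein of the Ifi27 family, held 25534 UMIs or 40.1% of those of the list, and Ifi27l2a, Bst2 and Ifi203 together held 55.8%. Without these 3, endothelial-like cells were first at 1408 CPM (1370 to 1446) and classical monocyte-like cells had 1385 CPM (1292 to 1483), a log2 ratio of 0.02 (-0.08 to 0.13). Neutrophil-like cells came next at 1120 CPM (1073 to 1168), followed by non-classical monocyte-like cells at 798 CPM. Plasmacytoid dendritic cell-like cells went from second to ninth, at 404 CPM (332 to 487), and their log2 ratio to the other gated cells turned from 1.88 (1.80 to 1.97) to -0.31 (-0.59 to -0.04). That of NK cell-like cells turned from -0.40 (-0.59 to -0.20) to 0.28 (0.05 to 0.51). Epithelial-like cells stayed last at 117 CPM (107 to 129).

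Members were next counted one by one. A gene was called higher in a cell type at 3 or more UMIs and at least 2 times the CPM of all other gated cells, and lower in the reverse case, with 3 UMIs set as the least for the type. Of the 35 genes, 34 had the 50 UMIs needed in gated cells and Ifit3b did not. In classical monocyte-like cells 20 of 34 were higher, where 4.84% of all 12579 features tested were. Endothelial-like cells also had 20 higher, beside 17.8% of all features. Neutrophil-like cells had 13 higher (9.78% of all features), non-classical monocyte-like cells 13 (9.18%), T cell-like cells 8 (7.98%), NK cell-like cells 8 (9.22%), plasmacytoid dendritic cell-like cells 6 (8.99%) and cDC1-like cells 5 (4.71%). With the mean of each cell's own CPM, the count in plasmacytoid dendritic cell-like cells was 3. Mature dendritic cell-like cells had 3 (6.44%), and C1q-high macrophage-like (5.08%), basophil or mast cell-like (6.03%) and stromal-like cells (14.8%) had 2 each. Members called lower numbered 4 in classical monocyte-like (17.3% of all features), 4 in endothelial-like (21.4%), 6 in neutrophil-like (43.1%) and 4 in non-classical monocyte-like cells (9.94%). They numbered 9 in T cell-like (33.7%), 2 in NK cell-like (11.7%), 5 in plasmacytoid dendritic cell-like (11.3%) and 5 in cDC1-like cells (13.8%). Mature dendritic cell-like cells had 8 lower (20.8%), basophil or mast cell-like cells 5 (16.7%) and stromal-like cells 7 (14%). The median log2 ratio (with 10 CPM added) of the tested members was 0.94 in classical monocyte-like, 0.74 in endothelial-like and 0.32 in neutrophil-like cells, where the medians of all features were -0.26, 0.07 and -0.35. It was -0.18 in T cell-like, -0.25 in NK cell-like, -0.55 in plasmacytoid dendritic cell-like and -0.59 in cDC1-like cells. There the medians of all features were -0.20, -0.21, -0.22 and -0.32.

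In the other direction, 30 of 34 genes were lower in epithelial-like cells, beside 28% of all features, and none was higher. Alveolar macrophage-like cells had 25 lower (26.1% of all features) and none higher. Only 140 of these 1751 cells had fewer than 2 TdTomato UMIs, and what the reporter signal means for their levels was not tested. B cell-like cells had 19 lower (32.7% of all features), and their single higher member was Ifi203. C1q-high macrophage-like cells had 13 lower (26.1% of all features) and 2 higher, Oas1a and Ifi44.

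**Figure D2:**
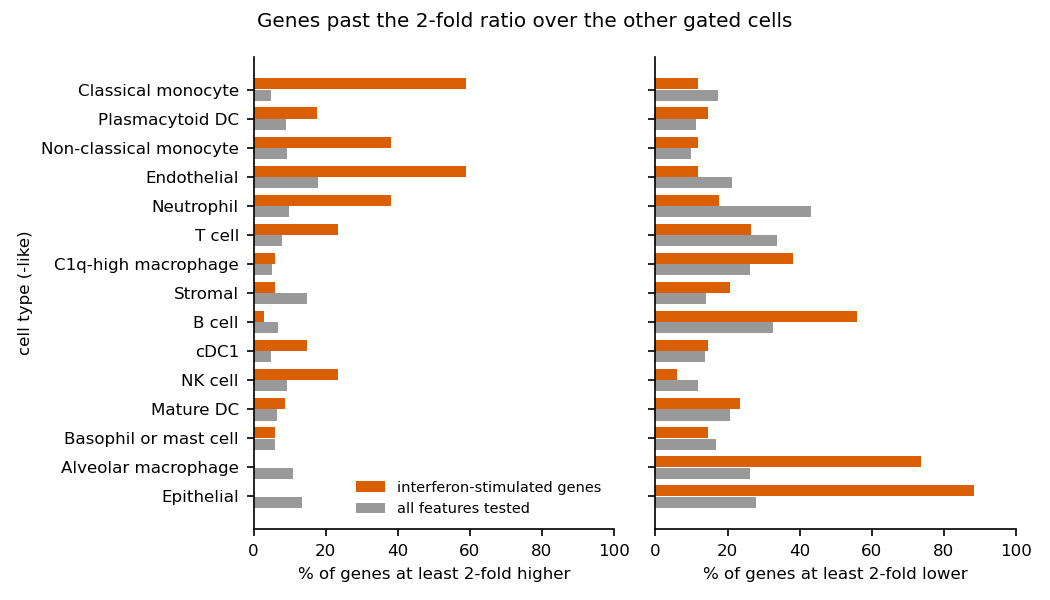
Paired bars give, for each cell type, the percentage of the 34 tested members and of all 12579 tested features that were at least 2-fold higher (left) or lower (right) than in the other gated cells. Members exceed the background most in classical monocyte-like cells on the left and in epithelial-like cells on the right.

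The members are described by what their products do, with their levels in every type shown in the heat map of log2(CPM + 1). The IFIT proteins bind viral RNA and block its translation. Their genes lie side by side on chromosome 19 (Ifit1 at 34640871 to 34650009, plus strand, mm10). Ifit1 was at 27.1 CPM (22.1 to 32.8) in endothelial-like and 22.1 CPM (16.0 to 29.7) in neutrophil-like cells, and for Ifit3 the log2 ratio of these types was 0.15 (-0.44 to 0.77). Neither gene differed beyond counting error between endothelial-like and neutrophil-like cells. Classical monocyte-like cells had 20.3 CPM of Ifit1, but 58.3% of its 12 UMIs there came from 1 cell. Ifit2 was highest in NK cell-like cells, at 26.9 CPM from 7 UMIs, against 10.8 CPM in endothelial-like cells (log2 ratio 1.32, -0.08 to 2.49). Ifit3b held 67 UMIs in the whole matrix, and 6.34% of the 91-base windows in the last 500 bases of Ifit3 are shared with it, so a part of their reads could not be told apart.

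Isg15, a ubiquitin-like protein that is linked to other proteins, was at 200 CPM (180 to 221, from 389 UMIs) in neutrophil-like, 136 CPM (94.1 to 190) in basophil or mast cell-like and 102 CPM (92.6 to 113) in endothelial-like cells. NK cell-like cells had 80.8 CPM and classical monocyte-like cells 78.0 CPM. Alveolar macrophage-like (5.86 CPM), B cell-like (5.92 CPM) and epithelial-like cells (6.33 CPM) were lowest. Usp18, the protease that removes ISG15 and also dampens the type I receptor, was at 27.5 CPM in mature dendritic cell-like and 23.7 CPM in classical monocyte-like cells, from 14 UMIs each.

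The OAS enzymes, when bound to double-stranded RNA, make a second messenger that activates RNase L. Oas3 (chromosome 5, 120753098 to 120777661, minus strand) was at 62.6 CPM (52.0 to 74.8) in neutrophil-like, 47.5 CPM in classical monocyte-like and 36.4 CPM in non-classical monocyte-like cells, and at 0.788 CPM in endothelial-like cells. Oasl1 followed this distribution in part. It was at 65.7 CPM (54.8 to 78.1) in neutrophil-like cells against 1.79 CPM in all other gated cells, a log2 ratio of 5.20 (4.75 to 5.67), the largest of any member in that type. Its next highest level was 33.8 CPM in cDC1-like cells, from 10 UMIs. T cell-like cells had 0 Oasl1 UMIs among 5653643, which allows 0.531 CPM. Oasl2, its neighbour on chromosome 5, had another distribution: 38.9 CPM in endothelial-like, 18.6 CPM in classical monocyte-like and 5.13 CPM in neutrophil-like cells. Oas1a was highest in classical monocyte-like cells at 57.6 CPM, with 42.2% of its 91-base end windows shared with Oas1g. Its log2 ratio over non-classical monocyte-like cells was 1.04 (-0.01 to 2.22). Oas2 was at 22.1 CPM in neutrophil-like and 22.0 CPM in classical monocyte-like cells.

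Irf7, the factor that amplifies type I interferon genes, was at 144 CPM (115 to 178) in classical monocyte-like and 140 CPM (124 to 157) in neutrophil-like cells, which did not differ beyond counting error (log2 ratio 0.05, -0.32 to 0.40). Non-classical monocyte-like cells had 92.4 CPM, NK cell-like cells 73.1 CPM and plasmacytoid dendritic cell-like cells, which are known for constitutive Irf7, 69.8 CPM. Alveolar macrophage-like cells were lowest at 2.93 CPM. Stat2, a subunit of the ISRE-binding complex, was spread more evenly, from 58.8 CPM in plasmacytoid dendritic cell-like to 7.65 CPM in epithelial-like cells.

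Nucleic acid sensors did not share 1 distribution. Ifi203, an AIM2-like receptor gene, was at 201 CPM (183 to 219) in B cell-like, 181 CPM (133 to 240) in NK cell-like and 173 CPM (141 to 210) in classical monocyte-like cells, and at 131 CPM in T cell-like cells. It was at 12.3 CPM in neutrophil-like cells, the type with the most Oasl1. Ifi204 of the same family was at 147 CPM (118 to 182) in classical monocyte-like, 70.0 CPM in non-classical monocyte-like and 6.77 CPM in B cell-like cells. Zbp1, a sensor of Z-form nucleic acid, was also highest in classical monocyte-like cells at 66.1 CPM. Its log2 ratio over non-classical monocyte-like cells was 0.65 (-0.24 to 1.62). Of the RNA helicase genes, Ddx58 (RIG-I) was at 53.8 CPM in NK cell-like and 45.2 CPM in endothelial-like cells (log2 ratio 0.25, -0.65 to 1.04). Ifih1 (MDA5) was at 42.4 CPM in classical monocyte-like cells. Ifih1 was the member with the largest ratio in alveolar macrophage-like cells, at 25.5 CPM there against 14.6 CPM in other gated cells, which is below the 2-fold line.

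The guanylate-binding proteins and immunity-related GTPases attack vacuoles of pathogens and respond strongly to IFN-gamma. The summed GTPases (Igtp, Irgm1, Iigp1, Ifi47) were at 233 CPM (218 to 249) in endothelial-like and 140 CPM (130 to 150) in T cell-like cells. Igtp was highest in T cell-like cells at 46.5 CPM (41.1 to 52.5) against 22.9 CPM in endothelial-like cells, and the intervals did not overlap. Ifi47 was at 65.6 CPM in T cell-like, 65.4 CPM in NK cell-like and 63.9 CPM in endothelial-like cells. Irgm1 was highest in endothelial-like cells at 42.6 CPM, but not beyond counting error over plasmacytoid dendritic cell-like cells (log2 ratio 0.36, -0.60 to 1.52). Iigp1 was highest in structural cells, at 109 CPM (79.5 to 147) in stromal-like and 104 CPM (93.8 to 115) in endothelial-like cells, against 10.3 CPM in T cell-like cells and at most 3.69 CPM in any other type. In epithelial-like cells 85.7% of its 14 UMIs came from 1 cell. Of the 3 Gbp genes, Gbp7 was the most abundant, at 96.2 CPM in endothelial-like, 80.7 CPM in T cell-like and 74.3 CPM in C1q-high macrophage-like cells, and Gbp2 was highest in neutrophil-like (39.5 CPM) and endothelial-like cells (36.3 CPM). Gbp3 was at 42.3 CPM in NK cell-like cells from 11 UMIs.

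The 2 Schlafen genes, whose family controls growth and translation, differed from each other. Slfn5 (chromosome 11, 82951349 to 82964840, plus strand) was at 398 CPM (379 to 419, from 1516 UMIs) in endothelial-like cells and 195 CPM (161 to 234) in classical monocyte-like cells, a log2 ratio of 1.03 (0.76 to 1.32). All other types had 81.0 CPM or less, and basophil or mast cell-like cells had 0 UMIs. Slfn8 was at 33.6 CPM in non-classical monocyte-like cells and at 1.31 CPM in endothelial-like cells, where Slfn5 was highest.

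Of the other effectors, Bst2 (tetherin), which holds budding virus at the membrane, is a known surface marker of mouse plasmacytoid dendritic cells. It was at 2871 CPM (2673 to 3080, from 781 UMIs) there. Mature dendritic cell-like (202 CPM, 165 to 245) and endothelial-like cells (187 CPM, 174 to 201) came next, and the log2 ratio of the highest to the second was 3.83 (3.53 to 4.14). The gate of plasmacytoid dendritic cell-like cells did not use Bst2.

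Ifi27l2a was at 3002 CPM in classical monocyte-like, 1187 CPM in non-classical monocyte-like, 1073 CPM in T cell-like and 607 CPM in C1q-high macrophage-like cells. In neutrophil-like cells it was at 627 CPM, and in endothelial-like cells at 59.7 CPM. NK cell-like cells had 1 UMI of Ifi27l2a among 260041, or 3.85 CPM. What RNA from outside the cells added to these levels was not tested.

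Rsad2 (viperin), which makes an antiviral nucleotide, was at 41.6 CPM (33.0 to 51.7) in neutrophil-like and 22.0 CPM in classical monocyte-like cells, against 2.22 CPM in gated cells other than neutrophil-like ones. Its neighbour on chromosome 12, Cmpk2, was at 21.0 CPM in neutrophil-like and 20.8 CPM in endothelial-like cells. Rtp4 was at 97.0 CPM in neutrophil-like and 63.6 CPM in endothelial-like cells, and Xaf1 at 88.6 CPM in endothelial-like and 74.6 CPM in classical monocyte-like cells. Ifi44 was highest in classical monocyte-like cells at 144 CPM (115 to 178), with a log2 ratio of 3.99 (3.62 to 4.34) over other gated cells, and plasmacytoid dendritic cell-like cells had 77.2 CPM. Isg20, an RNA exonuclease, was at 71.9 CPM in basophil or mast cell-like cells from 18 UMIs.

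**Figure D3:**
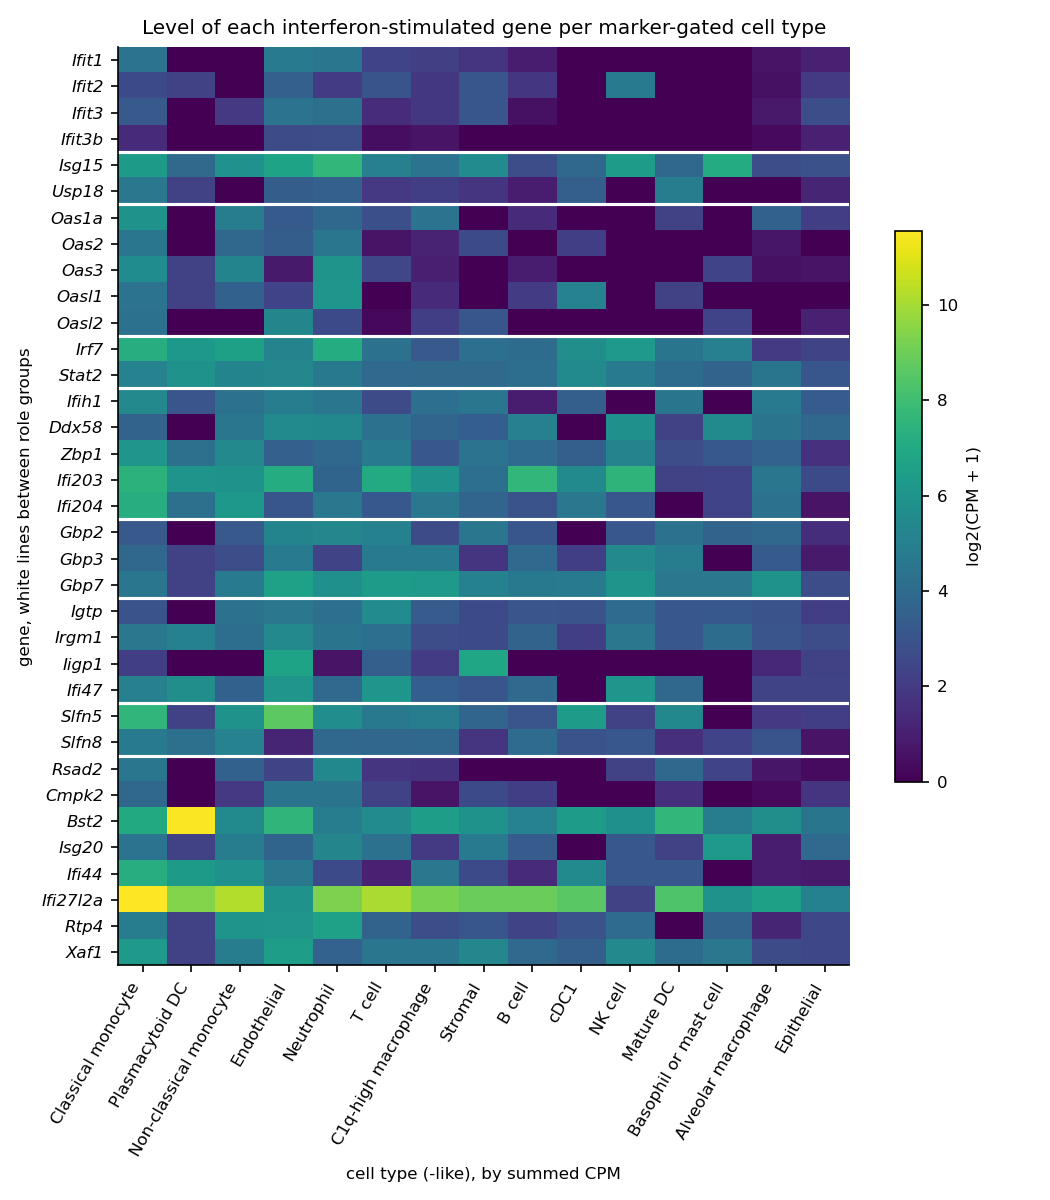
Heat map of log2(CPM + 1) for the 35 genes (rows, by role) in the 15 cell types (columns, by summed CPM). Bst2 in plasmacytoid dendritic cell-like cells and Ifi27l2a in classical monocyte-like cells are the brightest fields, and Oasl1, Oas3 and Rsad2 stand out in neutrophil-like cells.

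Within T cell-like cells the sum differed between subsets, mostly through Ifi27l2a. Subset markers placed 466 cells as CD8, 405 as CD4 conventional, 195 as regulatory and 102 as gamma-delta T-like. The rest of the 2816 T cell-like cells met the marker rule of none of these subsets. Regulatory T-like cells (Foxp3 UMIs, 195 cells) had 3991 CPM (3826 to 4161) for the list, CD4 conventional T-like cells 2230 CPM, CD8 T-like cells 1131 CPM and gamma-delta T-like cells 865 CPM. Ifi27l2a was at 3078 CPM in regulatory and 411 CPM in CD8 T-like cells. Without the 3 leading genes the sums were 713 CPM (644 to 787) in regulatory, 533 CPM (489 to 580) in CD8 and 511 CPM (464 to 561) in CD4 conventional T-like cells. Gbp7 (186 CPM against 60.0 CPM) and Gbp3 (80.0 CPM against 13.8 CPM) were higher in regulatory than in CD8 T-like cells, while Ifi47 was at 54.6 and 82.6 CPM.

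Endothelial-like cells differed little by vessel marker. The sum was 1854 CPM in cells with Vwf UMIs, a larger-vessel marker, 1781 CPM in cells with Car4 or Ednrb UMIs, which mark aerocytes, and 1817 CPM in cells with neither. Iigp1 was an exception at 127 CPM (106 to 152) in the Vwf cells and 58.3 CPM (44.1 to 75.8) in the Car4 or Ednrb cells. Isg15 was at 131 CPM (109 to 156) and 81.2 CPM (64.2 to 101) in the same groups. Epithelial-like cells were low in both states that were gated, at 135 CPM (120 to 151) in 467 ATII-like and 241 CPM (201 to 287) in 186 ATI-like cells. The rest of the 897 epithelial-like cells met the rule of neither state. Ifit3 accounted for 18 of the 127 UMIs of the ATI-like cells, or 34.2 CPM, against 0.881 CPM in ATII-like cells.

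To see whether the levels came from all cells or from a few, each cell was thinned at random to 1000 UMIs, and shallower cells were left out. This kept 659 of 1564 neutrophil-like, 1628 of 1796 endothelial-like, all 188 classical monocyte-like and 876 of 897 epithelial-like cells. Classical monocyte-like cells then had a median of 4 UMIs of the list (mean 4.81, SD 4.87), as did plasmacytoid dendritic cell-like cells (mean 4.16, SD 2.66). The spread differed between these types, with a variance of 4.92 times the mean in classical monocyte-like and of 1.69 times the mean in plasmacytoid dendritic cell-like cells. Neutrophil-like cells were as uneven, at 4.84 times the mean: 42.5% had no UMI of the list, and the top 33 of 659 cells held 31.6% of its UMIs. Endothelial-like cells were more even at 2.44 times the mean, and 26.1% had no UMI. In epithelial-like cells 86.3% had none.

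**Figure D4:**
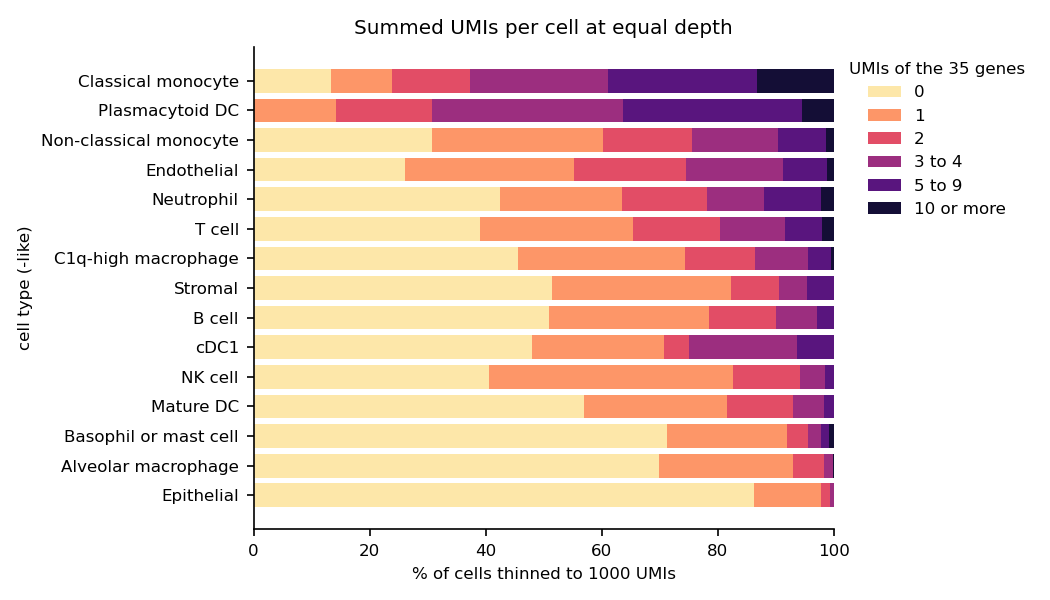
Stacked bars give, for each cell type, the percentage of cells with 0, 1, 2, 3 to 4, 5 to 9 and 10 or more UMIs of the 35 genes after each cell was thinned to 1000 UMIs. No plasmacytoid dendritic cell-like cell is at 0, whereas 86.3% of epithelial-like cells are.

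Cells with 5 or more different members were counted at this depth, in which each gene counts once whatever its UMIs. They made up 10.1% of classical monocyte-like cells (19 of 188, 6.20 to 15.3), 5.34% of endothelial-like cells (87 of 1628, 4.30 to 6.55) and 5.31% of neutrophil-like cells (35 of 659, 3.73 to 7.31). Non-classical monocyte-like cells had 1.92% (0.398 to 5.52), T cell-like cells 1.05% (0.700 to 1.52) and C1q-high macrophage-like cells 1.06% (0.594 to 1.74). Epithelial-like cells had 0 of 876, which allows a share of up to 0.342%. With Ifi27l2a left out, the percentages became 5.85% (2.96 to 10.2) in classical monocyte-like, 5.16% (4.14 to 6.35) in endothelial-like, 3.03% (1.86 to 4.65) in neutrophil-like and 0.526% (0.288 to 0.881) in T cell-like cells. At full depth the shares of cells with 5 or more members came to 39.4%, 18.2% and 7.29% in classical monocyte-like, endothelial-like and neutrophil-like cells, whose median depths were 3034, 1905.5 and 908 UMIs. Among the 35 neutrophil-like cells so chosen, the members found most often were Irf7 (65.7%, against 10.1% of the remaining cells), Isg15 (62.9% against 9.13%), Ifi27l2a (62.9% against 22.3%), Oasl1 (54.3% against 4.01%) and Rtp4 (37.1% against 5.93%). Among the 87 endothelial-like ones, they were Slfn5 (74.7% against 28.6%), Isg15 (49.4% against 6.68%), Bst2 (47.1% against 15.4%), Iigp1 (41.4% against 5.97%) and Gbp7 (37.9% against 6.75%). These cells were chosen by the genes themselves, so the shares are a description. Their median depth before thinning was 1310 against 1412.5 UMIs in the rest of the neutrophil-like, 1890 against 1999 UMIs in endothelial-like and 3085 against 3028 UMIs in classical monocyte-like cells.

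Members were then followed within single cells. For each of 17 genes, the mean UMIs of the other members (Ifi27l2a and Bst2 left out) were compared between thinned cells with and without a UMI of that gene. In neutrophil-like cells, the 86 cells with Irf7 held 2.51 ± 0.404 (SE over cells) UMIs of the others and the 573 without it 0.749 ± 0.0537. The 79 cells with Isg15 held 2.28 ± 0.336 against 0.767 ± 0.0607. In endothelial-like cells the 38 cells with Ifit1 held 4.16 ± 0.558 against 1.498 ± 0.0452, and the 146 cells with Isg15 held 3.05 ± 0.250 against 1.33 ± 0.0412. Slfn5, the most abundant member there, gave a smaller gap than Ifit1 or Isg15, at 1.60 ± 0.0971 against 0.953 ± 0.0383. Its own UMIs are left out of that sum but are in the sums for Ifit1 and Isg15. Ifi203 (1.86 ± 0.190 against 1.40 ± 0.0459) and Bst2 (2.08 ± 0.152 against 1.49 ± 0.0492) gave smaller ratios than Slfn5. In classical monocyte-like cells the 21 cells with Ifi204 held 4.48 ± 1.16 against 1.20 ± 0.114. In C1q-high macrophage-like cells the 24 cells with Isg15 held 2.29 ± 0.871 against 0.398 ± 0.0202, and the 39 cells with Ifi204 held 1.56 ± 0.575 against 0.388 ± 0.0199. Any other member was found in 62.5% (40.6 to 81.2) of these Isg15 cells against 29.1% (26.8 to 31.6). For Ifi204 the shares overlapped, at 38.5% (23.4 to 55.4) against 28.4% (26.0 to 30.8). The highest single cell of this type held 21 UMIs of the list without Ifi27l2a, and what it adds to these means was not tested. Gbp7 gave the smallest gap in this type, at 0.529 ± 0.0864 against 0.359 ± 0.0265. In alveolar macrophage-like cells those with Bst2 (0.216 ± 0.0514 against 0.238 ± 0.0163) or Stat2 (0.179 ± 0.0737 against 0.220 ± 0.0155) held no more of the others than those without. In T cell-like cells Rtp4 gave 1.90 ± 0.357 against 0.631 ± 0.0182, whereas Ddx58 (0.661 ± 0.112 against 0.635 ± 0.0190) and Slfn5 (0.684 ± 0.123 against 0.634 ± 0.0190) gave almost none. Co-detection was not tested between types.

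For Ifi27l2a the gap varied by type. Endothelial-like cells with and without it held 1.66 ± 0.245 and 1.59 ± 0.0496 UMIs of the other members, and non-classical monocyte-like cells 0.743 ± 0.123 and 0.698 ± 0.110, and alveolar macrophage-like cells 0.245 ± 0.0443 and 0.236 ± 0.0165. In neutrophil-like cells the values were 1.73 ± 0.202 and 0.932 ± 0.0814, and in classical monocyte-like cells 2.06 ± 0.253 and 0.600 ± 0.129. In the other 5 types with enough cells (T, B, C1q-high macrophage, plasmacytoid and mature dendritic cell-like), cells with it held 1.501 to 4.53 times as many UMIs of the others as cells without it. In NK cell-like cells the 21 cells with Ifi203 held fewer UMIs of the others (0.381 ± 0.146) than the 117 without it (0.675 ± 0.0794). Cells are not replicates, and the errors describe only the spread over the cells of the pooled sample.

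**Figure D5:**
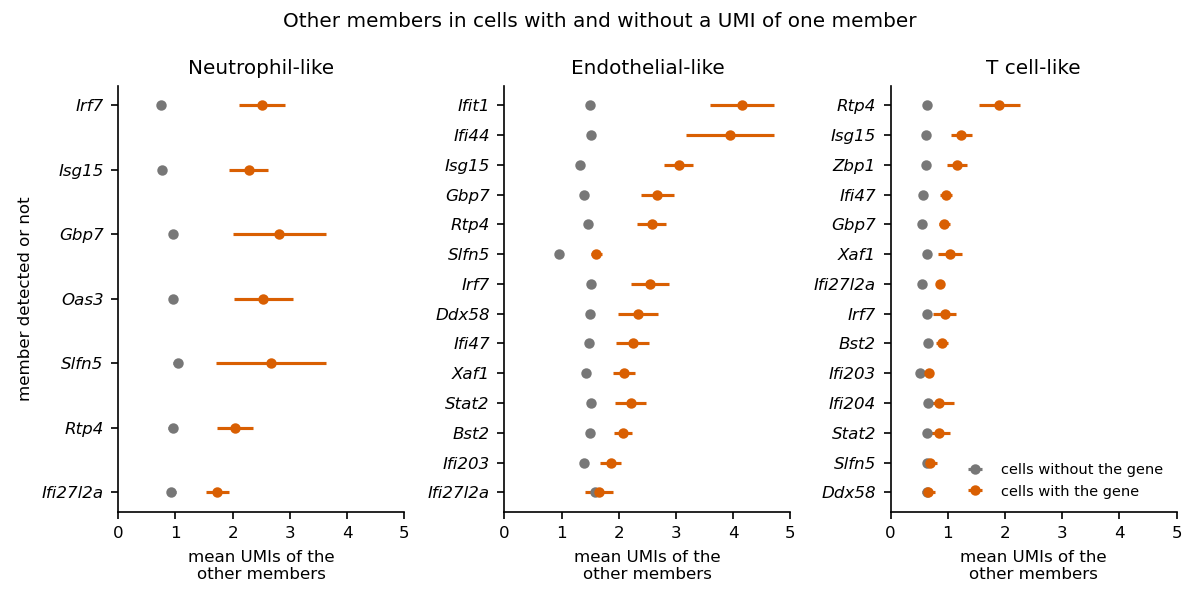
Points give the mean UMIs of the other members (without Ifi27l2a and Bst2) in thinned cells with (orange) and without (gray) a UMI of the gene on the vertical axis, in neutrophil-like, endothelial-like and T cell-like cells. Bars are SE over cells; genes with at least 20 cells on both sides are shown, ordered by their ratio.

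Other genes of the pathway were taken from lists written out with the members. Of 12 type I interferon genes, 11 had 0 UMIs in the whole matrix, Ifnb1 and the Ifna genes among them, and Ifnk had 2 UMIs. The type III genes Ifnl2 and Ifnl3 had 0 as well. Ifng was found in NK cell-like cells at 246 CPM (64 UMIs) and in T cell-like cells at 29.9 CPM (169 UMIs). Transcripts of the other 11 type I genes were thus not detectable at this depth.

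Receptor genes were found in every type. Ifnar1 and Ifnar2 were both highest in plasmacytoid dendritic cell-like cells, at 210 and 316 CPM. Ifngr1 was highest in non-classical monocyte-like (765 CPM) and NK cell-like cells (723 CPM). Ifnlr1, the type III receptor chain, was at 10.3 CPM in neutrophil-like and 5.54 CPM in epithelial-like cells, from 20 and 21 UMIs. Of the 14 signaling genes tested, 9 were lower and 0 higher in epithelial-like cells, beside 28% of all features lower, while 6 were higher in mature dendritic cell-like cells (6.44% of all features), Jak2 and Socs1 among them. Irf9, the DNA-binding partner of STAT2, was highest in classical monocyte-like (74.6 CPM) and endothelial-like cells (59.9 CPM). Irf8 was at 1754 CPM in plasmacytoid dendritic cell-like cells.

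Interferon-stimulated genes outside the list were counted in the same way. Of 24 tested, 12 were higher and 2 lower in classical monocyte-like cells (4.84% and 17.3% of all features), and 10 were higher and 7 lower in endothelial-like cells (17.8% and 21.4%). Non-classical monocyte-like cells had 7 higher and 3 lower (9.18% and 9.94%), cDC1-like cells 7 and 5 (4.71% and 13.8%), and neutrophil-like cells 5 and 7 (9.78% and 43.1%). B cell-like cells also had 5 higher, with 8 lower (6.77% and 32.7%), and the other types had 0 to 4 higher. In epithelial-like cells 0 were higher and 18 lower (13.5% and 28% of all features). Ifi211 was at 195 CPM and Ms4a4c at 566 CPM in classical monocyte-like cells, and both were among the 10 genes with the largest ratio there. Ifitm3 was at 5763 CPM in classical monocyte-like, 3985 CPM in non-classical monocyte-like and 3541 CPM in endothelial-like cells. Mx1 was at 58.9 CPM in mature dendritic cell-like cells and 20.3 CPM in classical monocyte-like cells. Of 11 IFN-gamma-linked GTPases and chemokines tested, 6 were higher and 4 lower in T cell-like cells (7.98% and 33.7% of all features), and 6 were higher and 2 lower in endothelial-like cells (17.8% and 21.4%). In neutrophil-like cells 0 of 11 were higher and 9 were lower (9.78% and 43.1% of all features), and the other types had 0 to 3 higher. Cxcl9, a chemokine that draws T cells, was at 119 CPM in stromal-like cells, and Cxcl10 at 67.8 CPM in C1q-high macrophage-like cells.

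Over the 15 types, the gene whose log2(CPM + 10) followed the summed list most closely among 8554 features with 500 or more UMIs was Ifnar1, with a Pearson r of 0.83. Arid5a (0.79), Cdkn2d (0.76), Ethe1 (0.76), Exoc6 (0.75), Calhm2 (0.74), Chst12 (0.73), Cmtm7 (0.73), Wasf2 (0.72) and Ccndbp1 (0.72) followed. Against the sum without the 3 leading genes, only Arid5a (0.81) and Wasf2 (0.74) were again among the first 10, and Ifnar1 was not. All types come from 1 pooled matrix. How large the highest of 8554 correlations over 15 types would be by chance was not tested.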

How the data were processed

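Per the file header and the labels, the authors aligned 3′ droplet libraries in Cell Ranger 3.0.2 (mm10 plus sequences for the 2 fluorescent proteins) and deposited raw UMI counts per gene and cell in 1 pooled matrix of 20351 cells. Cells carry only a column number, so barcodes shared between libraries could not be counted; columns of other samples were not present.

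Cells with at least 200 genes and at most the 98th percentile of genes (2713) and of mitochondrial share (13.4%) were kept, which left a median of 1949.5 UMIs. A gate needed 3 markers of a type and a lead of 2 over every other type, which also removed cells of mixed type as a treatment of doublets; no doublet caller was run. Types of at least 40 cells were described, which left out cDC2-like (22 cells) and ciliated or club-like cells (6). Counts summed per type were divided by the type's total to give CPM, with exact Poisson intervals; ratios have exact conditional and shares exact Clopper-Pearson intervals, at 95%, and 3 counts set the limit where a count was 0. Thinning was hypergeometric to 1000 UMIs. Ratios and calls were tested on simulated data. Python 3.11.15, numpy 2.4.6 and scipy 1.17.1 were used. Coordinates are from GENCODE vM21 on mm10, promoters from RefSeq (GRCm38.p6).

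On the same strand, annotated genes overlap Ifi203 (Mndal), Igtp (Irgm2), Ifi47 (Olfr56), Gbp7 and Rtp4, and reads shared with them could not be told apart. The members, lists and gates were chosen with earlier results of these data known. Values in single types are given for the 15 members with the highest mean CPM over types, the highest of each role, and the 3 with the largest ratio per type at 30 or more UMIs; other named values illustrate the role groups and were chosen after they were seen. Pathway symbols without a row in the feature table were Mx2, Ifi30, Oas1b, Gbp11 and Cxcl11. Alternatives changed the cell filter, gate, CPM denominator, depth and fold. One allele of the mice and one signaling gene are not reported here.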

Additional observations from a re-analysis of the deposited data

How the results depend on the processing

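No paired analysis was possible because cells are not mapped to mice, and for the same reason no replicate could be left out. Under the alternatives, 16 of the main summed levels moved beyond their counting interval and 29 did not, 10 of the main shares of cells moved and 8 did not, 1 of the main counts of members moved by over 1.5 times and 49 did not, and the 7 co-detection values kept their direction. Where nothing else is said the cause was not tested. Without mitochondrial and ribosomal protein genes in the total, the summed CPM was by construction higher: 6814 in classical monocyte-like, 6063 in plasmacytoid dendritic cell-like, 2411 in endothelial-like, 1994 in neutrophil-like and 232 in epithelial-like cells. Without the 3 members with most UMIs it was 1385, 404, 1408, 1120 and 117 CPM in the same order, and the log2 ratio to other gated cells changed sign in plasmacytoid dendritic cell-like (1.88 to -0.31) and NK cell-like cells (-0.40 to 0.28). With 1 more gate marker classical monocyte-like cells had 4452 and epithelial-like cells 149 CPM, and without upper cut-offs epithelial-like cells had 205 CPM. The extra gate marker also moved T cell-like cells from rank 6 to rank 3 of the sum and non-classical monocyte-like cells from 3 to 4. It left too few cDC1-like cells to describe. Leaving out non-epithelial cells with 2 or more TdTomato UMIs gave 1838 CPM in endothelial-like cells. That step left 140 of the 1751 alveolar macrophage-like cells, which kept rank 14 in the order of the sum. The mean of each cell's own CPM gave 1839 CPM in endothelial-like cells. It lowered the members higher in plasmacytoid dendritic cell-like cells from 6 to 3. The gate without Ly6c2, added after the data were seen, left 107 classical monocyte-like cells at 4418 CPM, still first of the types. The share of cells with 5 or more members follows depth. In classical monocyte-like cells it was 2.66% at 500 UMIs, 26.7% at 2000 and 39.4% without thinning, in endothelial-like cells 1.17%, 16.0% and 18.2%, and in neutrophil-like cells 1.21% and 14.1% at 500 and 2000. Without Ifi27l2a, also added afterwards, it was 5.85% in classical monocyte-like, 5.16% in endothelial-like and 3.03% in neutrophil-like cells.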
